A study of Mus musculus with 10 samples.

Results

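Interleukins are secreted proteins through which leukocytes and tissue cells signal to each other, and interleukin receptors are the surface chains that bind them. The genes described here are the 54 protein-coding genes whose symbol starts with Il and a digit and whose mean level over 10 whole-lung samples was at least 0.1 FPKM. They were chosen from 84 genes with such a symbol at any level, in a table of 54532 genes. FPKM divides the sequenced fragments of a gene by its length and by the size of the library, so that levels can be compared between genes. Of the 54 members, 18 encode ligands or their soluble inhibitors and 36 encode receptor chains, decoys included.

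All samples were whole lungs of wild-type C57BL/6J mice collected on postnatal day 30 (P30). In the 5 samples of the IPF group (increased pulmonary flow), labelled as fistula surgery, the abdominal aorta had been punctured through into the inferior vena cava at P7, which joins both vessels in an aortocaval fistula. The 5 sham mice had the same operation without the puncture. The comparison asks which interleukin signals differed in the lung at P30. The labels number the samples without naming animals, so the p-values measure the spread between these samples.

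The recovered depth was 16250190 to 19026843 reads on genes in the IPF group and 15483046 to 17818542 in the sham group. The groups also differed in features that the labels do not give. Xist, which silences an X chromosome in female cells, was at 26.8 to 43.2 FPKM in the 5 IPF samples and at 0.0301 to 0.0767 FPKM in the 5 sham samples, and the 4 Y-linked genes looked at had no read in the IPF samples. The 6 clock genes looked at also divided the samples by group without overlap, with Arntl and Npas2 higher and Nr1d1, Dbp, Per2 and Per3 lower in IPF. The methods describe pups of both sexes. For every difference below, the operation cannot be told apart from what these sex-linked and clock genes mark. IPF replicate 5 stood apart by neutrophil genes such as S100a8 and S100a9. Sham replicate 1 stood apart by its summed alveolar type 2 genes (11750 FPKM, against 17305 to 19023 FPKM in the other sham samples). That sum was low through Sftpc (9437 FPKM, against 14937 to 16514 FPKM). Abca3 of the same list was higher in sham replicate 1 (38.3 FPKM) than in any other sham sample.

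Interleukins act in families that share receptor chains. The IL-1 family signals through MyD88 and NF-kappaB, the common gamma, gp130, IL-12 and IL-10 families signal through JAK kinases and STAT factors, and the IL-17 family signals through the adaptor Act1. In the lung, epithelial cells store IL-33 and IL-18 as alarm signals, while type 2 cytokines are known for their part in allergic airway disease. Decoy receptors and binding proteins catch ligands without passing on a signal.

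In these lungs the receptors were much more widely detected than the ligands. Of 36 ligand genes, 20 were under the mean level of 0.1 FPKM, against 7 of 43 receptor and decoy genes. In all, 30 of the 84 genes were under it. Of these, 11 had no read in any sample and 25 had at most 3 reads in every sample, which was taken as the floor (this covers counting error only). Il23r (0.108 FPKM), the chain that binds IL-23, and Il11ra2 (0.12 FPKM) lay just inside the threshold. Further entries of Il11ra2, away from chromosome 4, lay under it (0.0182 FPKM and 0 FPKM). They count among the 84 genes and the 43 receptor and decoy genes. Il10 (0.0574 FPKM) and Il23a (0.0563 FPKM), a subunit of IL-23, lay just outside. Several ligands of T cells were near or under the floor, although Il4 was a member. Il17a had 2 reads, all in IPF replicate 1, Il22 had 1 read in sham replicate 4, and Il21 had 1 read in IPF replicate 4. Il13 had at most 3 reads and Il5 at most 3 reads in a sample, and no read of Il3, Il9, Il25 or Il31 was found.

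Among the members, 11 had a mean of at least 10 FPKM and 18 a mean under 1 FPKM. Il6st, which encodes gp130, the signalling chain shared by the IL-6 type cytokines, was the highest with 47.4 ± 3.11 FPKM in IPF and 40.6 ± 2.54 FPKM in sham (SD, n = 5 each). Where a pair of levels is given below, IPF stands first and ± is the SD over the 5 samples of a group. Il33, an alarm cytokine of the nucleus, followed as the highest ligand with 34.1 ± 10.4 and 26.2 ± 4.84 FPKM. The receptor chains Il4ra (mean of all samples 21.3 FPKM), Il18r1 (19.6 FPKM), Il11ra1 (16.9 FPKM), Il2rg (15.1 FPKM), Il13ra1 (14.2 FPKM) and Il10rb (14.0 FPKM) came next. Beside Il33, the ligands above 10 FPKM were Il34 (11.6 FPKM), a ligand of the macrophage receptor Csf1r, and Il17d (10.8 FPKM). The IPF and sham values of Il13ra1, Il10rb, Il34, Il17rc and Il17d overlapped. Il11ra1 shares its position with Dctn3, Galt and Rpp25l, so its level is uncertain where reads were not assigned by strand.

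**Figure D1:**
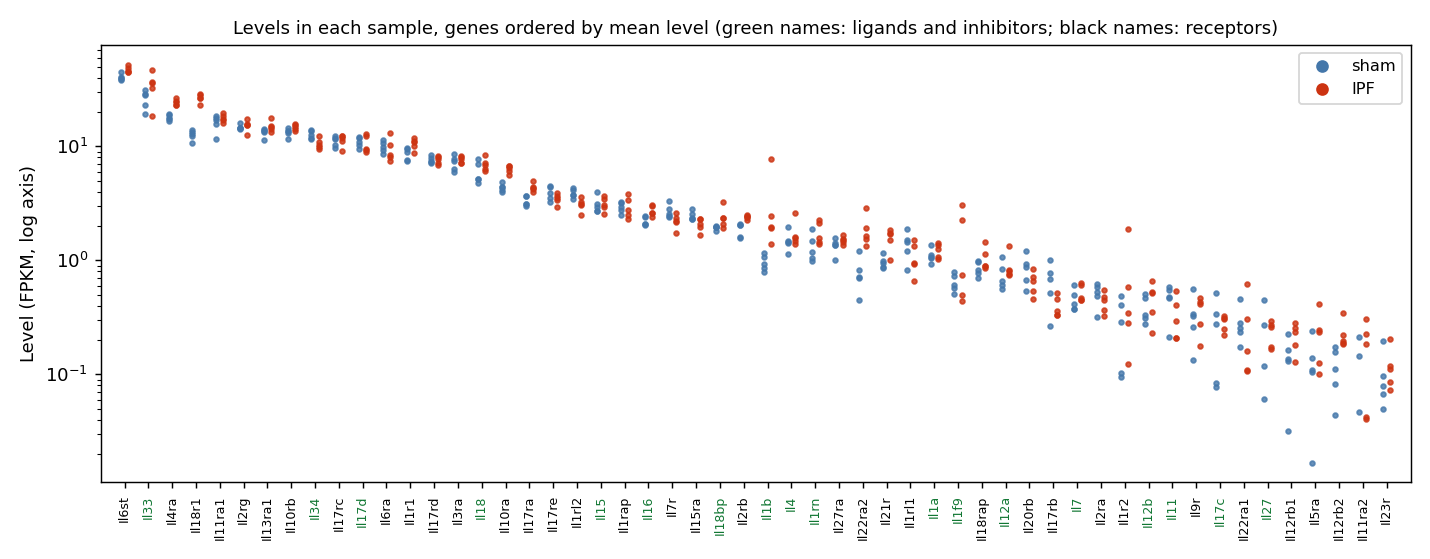
Level of each of the 54 genes in FPKM on a log axis, with 1 point per sample and the genes ordered by mean level from Il6st to Il23r. Green names are ligands and inhibitors, and values of 0 (Il27 in sham replicate 1, Il11ra2 in sham replicates 4 and 5) are not drawn. The red IPF points of Il4ra and Il18r1 lie above all blue sham points, and the Il1b and Il1r2 points of IPF replicate 5 stand far above the others.

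Fold changes are differences of log2(FPKM + 0.1), IPF minus sham, and understate the change of low genes. With limma and Benjamini-Hochberg adjustment over 20448 genes, 5 of the 54 members had an adjusted p under 0.05 (9.26%), against 5.85% of all genes tested. All 5 were receptor chains and all were higher in IPF (background 3.71% higher), while 0 members were called lower (background 2.14%). The 5 were Il18r1, Il4ra, Il10ra, Il22ra2 and Il17ra. Of 36 receptors 5 were called, and of 18 ligands and inhibitors 0 were called, although 3 ligands (Il1b, Il34 and Il16) had an unadjusted p under 0.05. In all, 16 of the 54 members had one, against 19.5% of all genes tested, and Il34, Il1rl2, Il15ra and Il7r were those with a negative value. Limma voom on the recovered reads called the same 5 members. Il18r1 and Il22ra2 also passed a log2 fold change of 1, as did 1.14% of all genes. The median log2 fold change was 0.18 over the members and 0.00 over all genes, and 40 members had a positive and 14 a negative value. Of the positive ones, Il23r and Il11ra2 passed the level threshold only through IPF, with sham means of 0.0976 and 0.0810 FPKM.

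In 9 members (16.7%, against a background of 7.29%) the 5 IPF and the 5 sham values did not overlap, and IPF was the higher group each time. They were the 5 called receptors together with Il6st, Il2rb, Il12rb2 and Il1b. The lack of overlap fixes the two-sided exact permutation p of each of the 9 at 0.00794, the smallest that 252 assignments of the samples allow. This p therefore adds no support of its own. Whether ligands and receptors differ in their response was not tested.

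**Figure D2:**
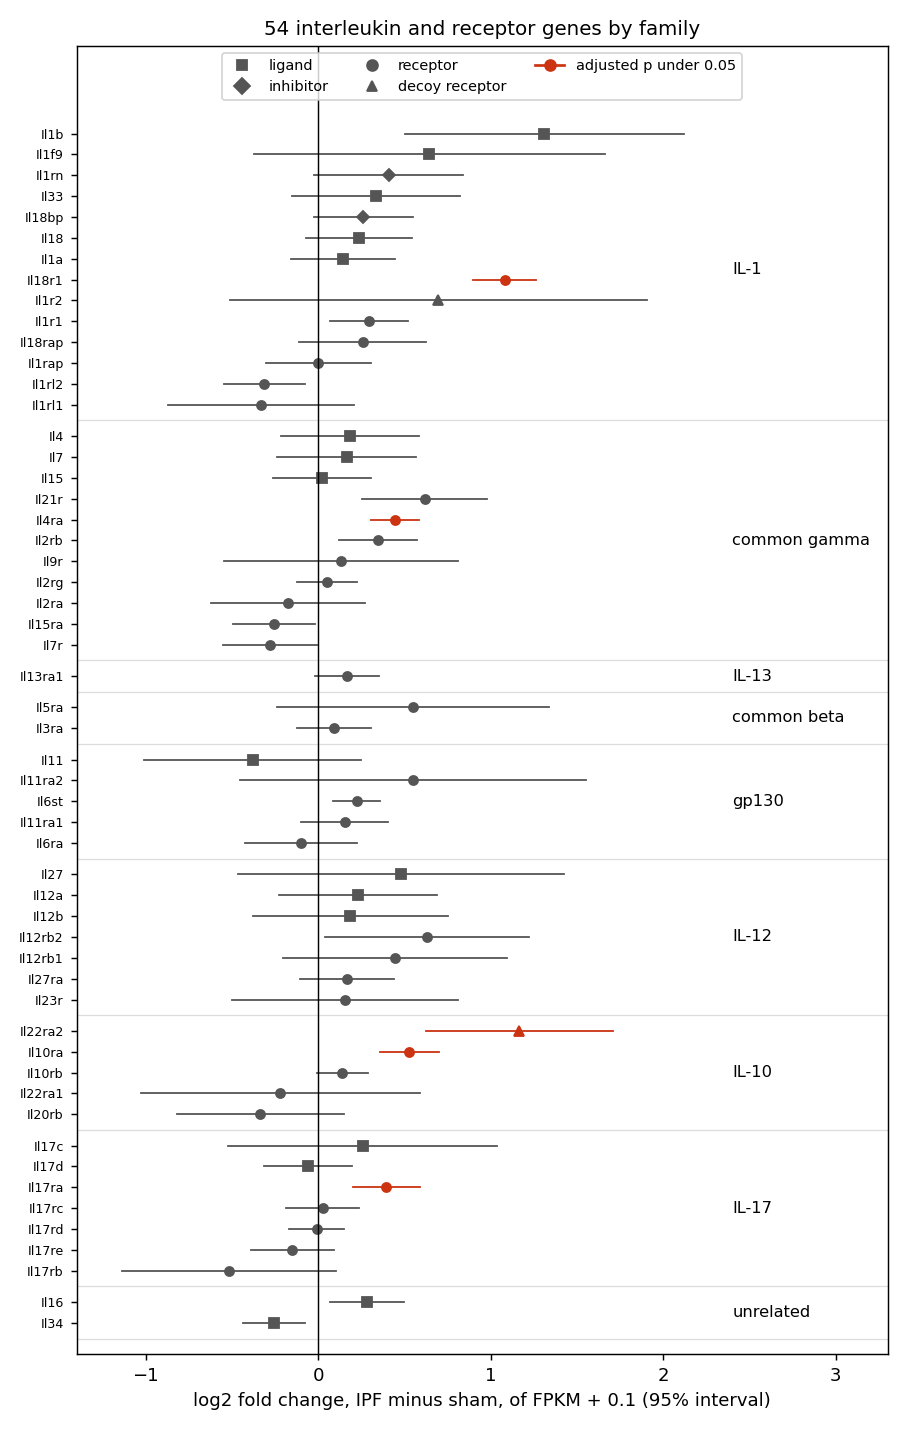
Log2 fold change of FPKM + 0.1, IPF minus sham, of the 54 genes by family, with the 95% interval from limma. Squares are ligands, diamonds inhibitors, circles receptors and triangles decoy receptors. The 5 genes in red, with an adjusted p under 0.05, are receptor chains to the right of 0, from 0.40 for Il17ra to 1.17 for Il22ra2.

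In the IL-1 family, the alpha chain of the IL-18 receptor had the smallest p of all members. Il18r1 (ENSMUSG00000026070, chromosome 1 of GRCm38, 40465552 to 40500854, plus strand) binds IL-18, which drives interferon gamma production in NK and T cells. Its level was 28.1, 26.6, 28.7, 26.8 and 23.0 FPKM in IPF samples 1 to 5. In sham samples 1 to 5 it was 12.7, 13.4, 10.6, 12.2 and 13.8 FPKM. The lowest IPF value was thus well above the highest sham value, and 822 to 2617 reads stood behind each value. This is a log2 fold change of 1.08 (95% interval 0.90 to 1.26, limma adjusted p = 5.36e-05), a 2.12-fold difference. Il18r1 passed the threshold under each of 22 alternatives (limma adjusted p from 6.54e-06 to 0.00403).

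The other parts of the IL-18 system did not pass the test. Il18rap, the signalling chain of the same receptor, was at 1.05 ± 0.252 FPKM in IPF and 0.848 ± 0.123 FPKM in sham (SD, n = 5 each, limma adjusted p = 0.439). Il18 itself was at 6.95 ± 0.896 and 5.95 ± 1.30 FPKM (limma adjusted p = 0.390), and its soluble inhibitor Il18bp at 2.39 ± 0.526 and 1.94 ± 0.0683 FPKM (limma adjusted p = 0.298). Both receptor chains are needed for signalling, and Il18r1 was at a level many times that of Il18rap in both groups.

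Il18r1 lies in a cluster of 6 members on the plus strand of chromosome 1, in the order Il1r2, Il1r1, Il1rl2, Il1rl1, Il18r1 and Il18rap, from 40074079 to 40551705 (GRCm38). Only Il18r1 of them was called. Its direct neighbour Il1rl1, the receptor of IL-33, ends at 40465415, just before the start of Il18r1, and had a log2 fold change of -0.33 (95% interval -0.87 to 0.21). Il1rl2, the receptor of the IL-36 cytokines, was at 3.11 ± 0.416 FPKM in IPF and 3.87 ± 0.371 FPKM in sham (limma adjusted p = 0.125). Il1r1, which carries the IL-1 signal, was at 10.6 ± 1.20 and 8.63 ± 1.08 FPKM (limma adjusted p = 0.130). Il1rap, the chain shared by the IL-1, IL-33 and IL-36 receptors, had a log2 fold change of 0.00 (95% interval -0.30 to 0.30).

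Of the 5 called genes, the RefSeq promoter table (GRCm38.p6) held Il18r1 and Il4ra, whose windows are shown because both genes were higher in every IPF sample than in any sham sample. Each window of 300 bases spans a start site and lies mostly upstream of it. Capitals mark matches to TTCNNNGAA, the gamma-activated site that STAT factors bind, in Il18r1, and to an NF-kappaB motif (GGG, any 2 bases, TTTCC, here on the reverse strand) in Il4ra. The Il18r1 window is chr1:40465756-40466055 and the Il4ra window chr7:125552021-125552320, both on the plus strand.
Il18r1: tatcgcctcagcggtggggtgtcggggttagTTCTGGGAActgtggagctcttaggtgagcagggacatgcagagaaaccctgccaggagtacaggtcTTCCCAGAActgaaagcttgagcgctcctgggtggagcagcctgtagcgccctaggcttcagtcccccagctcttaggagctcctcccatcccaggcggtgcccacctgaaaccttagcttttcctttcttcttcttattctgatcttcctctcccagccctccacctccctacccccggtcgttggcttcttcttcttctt
Il4ra: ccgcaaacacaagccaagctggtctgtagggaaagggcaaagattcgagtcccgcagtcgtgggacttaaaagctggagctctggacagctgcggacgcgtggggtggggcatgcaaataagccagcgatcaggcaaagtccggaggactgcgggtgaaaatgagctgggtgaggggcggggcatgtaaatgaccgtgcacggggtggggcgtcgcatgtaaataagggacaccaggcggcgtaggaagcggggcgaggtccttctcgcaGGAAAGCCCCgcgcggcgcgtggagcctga
The first bases of the Il18r1 matches lie at -219 and -152 from the start site, and that of the Il4ra match at 20 beyond it. The other 2 Il18r1 start sites in the table had no match.

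Both strands of all windows were searched. The table held 43 of the 54 members with 57 windows of 300 bases. The gamma-activated site was found in 7 of these (12.3%), in Il12rb2, Il17d, Il18r1, Il1f9, Il1r2, Il4 and Il7r, and in 8.30% of all 32851 promoters. The NF-kappaB letters were in 6 (10.5%), in Il16, Il17rc, Il1rn, Il23r and Il4ra, against 1.63% of all promoters. The 2 Il1rn windows with these letters overlap and hold the same match, which is thus counted in both. The interferon-stimulated response element (GAAA, any 2 bases, GAAA) was in 2 (3.51%, all promoters 3.44%). For the clock motifs, the E-box CACGTG was in 2 (3.51%, all 7.15%), the D-box TTATGNAA in 5 (8.77%, all 3.39%) and the ROR element AGGTCA in 9 (15.8%, all 16.3%). Such matches are letters only, and binding was not measured here.

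The ligands and inhibitors of the IL-1 family, 7 in number, all had positive fold changes (median 0.33), and 0 of them were called. Il1b (ENSMUSG00000027398, chromosome 2, 129364570 to 129371139, minus strand) encodes IL-1 beta, the inflammatory cytokine that caspase-1 activates. It was at 1.91, 1.38, 1.97, 2.47 and 7.71 FPKM in IPF samples 1 to 5. The sham samples had 0.859, 0.936, 1.08, 0.787 and 1.17 FPKM, all below the lowest IPF value. Its log2 fold change of 1.31 (95% interval 0.50 to 2.12) was the largest of the 54, with a limma adjusted p of 0.0635. Without IPF replicate 5 it was 0.92, with a limma adjusted p of 0.0110. Il1b overlaps the antisense gene Il1bos, which was at a mean of 0.0473 FPKM.

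IPF replicate 5 was also the highest IPF sample for Il1r2, the decoy receptor of IL-1 that neutrophils carry. Its Il1r2 level was 1.87 FPKM, while the other IPF samples had 0.123 to 0.582 FPKM and the sham samples 0.0944 to 0.490 FPKM (limma adjusted p = 0.538). Beside this, the 10 neutrophil genes of a marker list summed to 306 FPKM in IPF replicate 5, against 57.1 to 87.9 FPKM in the other IPF samples. Most of this sum came from S100a8 (78.9 FPKM) and S100a9 (185 FPKM). Retnlg, Csf3r (11.4 FPKM), Cxcr2 (6.14 FPKM), Mmp8 (3.52 FPKM) and Ly6g (0.480 FPKM) were also highest in this sample, while the granule genes Camp (0.969 FPKM), Ngp (2.64 FPKM) and Ltf (1.28 FPKM) lay within the range of the other IPF samples. In the sham samples the sum was 17.0 to 89.3 FPKM. All 10 genes had positive log2 fold changes (median 0.93), 5 had an unadjusted p under 0.05, Csf3r did not overlap between the groups, and 0 of the 10 had a limma adjusted p under 0.05. Their part in the Il1b result was not tested beyond leaving out this sample. Il1f9, which encodes IL-36 gamma, an epithelial cytokine, was high in 2 IPF samples, at 3.05 FPKM in replicate 3 and 2.26 FPKM in replicate 5. It was at 0.437 to 0.796 FPKM in the 8 others (limma adjusted p = 0.491).

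**Figure D3:**
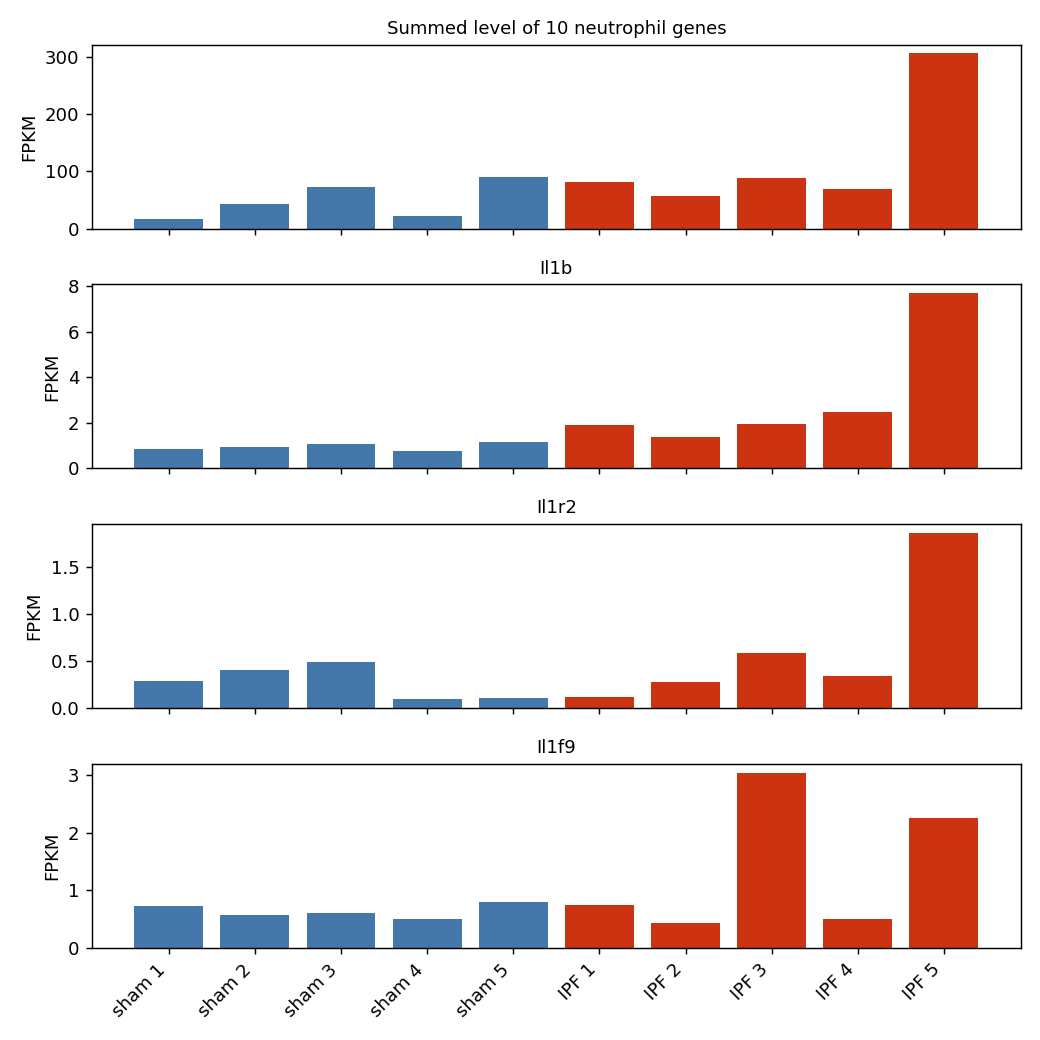
Level in FPKM in each of the 10 samples (blue sham, red IPF) of the summed 10 neutrophil marker genes, Il1b, Il1r2 and Il1f9, from top to bottom. IPF replicate 5 has the tallest bar for the neutrophil sum (306), Il1b (7.71) and Il1r2 (1.87), while Il1f9 is highest in IPF replicate 3 (3.05). Il1b is above all sham bars in every IPF sample.

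Il33 was lowest in the same IPF sample. It was at 32.3, 37.1, 35.8 and 47.0 FPKM in IPF samples 1 to 4 and at 18.4 FPKM in IPF replicate 5, while the sham samples had 19.4 to 31.5 FPKM. Over the groups this gave a log2 fold change of 0.33 (95% interval -0.15 to 0.82, limma adjusted p = 0.449). The remaining ligands and inhibitors were Il1a (1.23 ± 0.173 against 1.10 ± 0.160 FPKM) and Il1rn, the receptor antagonist (1.76 ± 0.399 against 1.31 ± 0.369 FPKM, SD, n = 5 each), neither past the test.

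In the common gamma family the alpha chain of the IL-4 receptor rose. Il4ra (ENSMUSG00000030748, chromosome 7, 125552120 to 125579474, plus strand) binds IL-4, and with Il13ra1 also IL-13. Its level was 24.7, 23.0, 25.1, 26.7 and 23.2 FPKM in IPF samples 1 to 5. It was 16.6, 17.7, 19.4, 17.3 and 19.0 FPKM in sham samples 1 to 5. Every IPF sample was above every sham sample, by a log2 fold change of 0.45 (95% interval 0.31 to 0.58, limma adjusted p = 0.00258), or 1.36-fold. Il4ra was called under each of 22 alternatives (limma adjusted p from 0.00101 to 0.0169).

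The partner chains of Il4ra lie on the X chromosome, and neither passed the test. Il2rg, the common gamma chain, was at 15.3 ± 1.74 FPKM in IPF and 14.8 ± 0.767 FPKM in sham. Il13ra1 was at 15.1 ± 1.65 and 13.4 ± 1.09 FPKM (SD, n = 5 each). The ligand Il4 was at 1.73 ± 0.492 and 1.49 ± 0.296 FPKM, with a log2 fold change of 0.19 (95% interval -0.21 to 0.59). In 15 genes that IL-4 and IL-13 are known to induce, 0 were called higher and 0 lower (median log2 fold change -0.06). Over all genes tested, 3.71% were called higher and 2.14% lower. These shares are the background of each list and marker count below. Of 10 signalling partners of this family, 0 were higher and 1 was lower, the adaptor Irs2 (6.83 ± 1.21 against 10.3 ± 1.98 FPKM, limma adjusted p = 0.0300).

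Il21r, the receptor of the T-helper cytokine IL-21, lies next to Il4ra on chromosome 7 (125603429 to 125633570). It was at 1.50, 1.73, 1.83, 1.70 and 1.00 FPKM in IPF samples 1 to 5 and at 0.849 to 1.16 FPKM in the sham samples. IPF replicate 5 lay within the sham range and the other 4 did not. Its log2 fold change was 0.62 (95% interval 0.25 to 0.98, limma adjusted p = 0.0530). Il21r was called with quantile normalization, array weights or protein-coding genes alone. It was also called without IPF replicate 5, alone or together with sham replicate 1, and under no other alternative. Il2rb, the beta chain that IL-2 and IL-15 share, was at 2.25 to 2.49 FPKM in IPF and 1.57 to 2.08 FPKM in sham, without overlap (log2 fold change 0.35, limma adjusted p = 0.0796). Among the other chains, Il15ra, Il7r and Il2ra had negative fold changes that did not pass the test. Il15ra was at 2.07 ± 0.262 against 2.48 ± 0.225 FPKM, and Il7r, the receptor of the lymphocyte survival factor IL-7, at 2.21 ± 0.321 against 2.70 ± 0.372 FPKM. Il15, the highest ligand of the family, had a log2 fold change of 0.02 (95% interval -0.26 to 0.31). Among 10 genes known to be induced by IL-2, IL-7 or IL-15, 3 were called higher (30%, all genes 3.71%) and 0 lower, with a median of 0.32. They were the feedback inhibitor Socs1 (2.05 ± 0.586 against 0.804 ± 0.295 FPKM), the kinase Pim1 (12.8 ± 2.52 against 8.75 ± 0.641 FPKM) and the cytotoxic protease Gzmb (1.67 ± 0.486 against 0.804 ± 0.231 FPKM).

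The IL-10 family was represented by 5 receptor chains and no ligand, and 2 of the chains rose. Il10ra (ENSMUSG00000032089, chromosome 9, 45253837 to 45269149, minus strand) is the binding chain for the anti-inflammatory cytokine IL-10 and is mainly a leukocyte gene. It was at 6.03, 6.74, 6.74, 5.60 and 6.41 FPKM in IPF samples 1 to 5 and at 3.95, 4.85, 4.36, 4.14 and 4.39 FPKM in sham samples 1 to 5. The groups did not overlap, and the log2 fold change was 0.53 (95% interval 0.36 to 0.70, limma adjusted p = 0.00323), or 1.44-fold. It was called under each of 22 alternatives. Il10rb, the widely expressed second chain, was at 14.7 ± 0.872 and 13.3 ± 1.05 FPKM (limma adjusted p = 0.279). Il10 itself had 0 to 3 reads per sample in either group, so that no difference was detectable at this depth.

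Il22ra2 (ENSMUSG00000039760, chromosome 10, 19621998 to 19634681, plus strand) encodes a soluble decoy that binds IL-22 and keeps it from its receptor. It was at 1.53, 1.92, 1.63, 1.34 and 2.87 FPKM in IPF samples 1 to 5 and at 0.826, 1.21, 0.449, 0.697 and 0.709 FPKM in sham samples 1 to 5. The ranges of 61 to 127 reads and 18 to 54 reads did not meet. The log2 fold change was 1.17 (95% interval 0.62 to 1.71, limma adjusted p = 0.0184), or 2.25-fold, and without IPF replicate 2 the limma adjusted p was 0.0517. Il22ra1, the signalling receptor of IL-22, was at 0.260 ± 0.215 and 0.281 ± 0.108 FPKM, and Il20rb at 0.641 ± 0.152 and 0.846 ± 0.257 FPKM (SD, n = 5 each), neither past the test. The transcription factor Ahr, known for driving Il22 in lymphocytes, rose (29.5 ± 2.71 against 23.0 ± 2.93 FPKM, limma adjusted p = 0.0401), as 1 of the 2 partners of this family that could be tested. The partners Ifnl2 and Ifnl3 had no read in any sample.

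Of 8 genes that IL-10 is known to induce in myeloid cells, 3 were called higher (37.5%, all genes 3.71%) and 1 lower. Their median log2 fold change was 0.00. Socs3, Bcl3 and Pim1 each belong to more than 1 of the lists. Those higher were Nfil3 (7.88 ± 1.00 against 2.11 ± 0.406 FPKM), a transcription factor that also belongs to the clock, Bcl3 (7.28 ± 1.33 against 4.46 ± 0.594 FPKM) and the feedback inhibitor Socs3 (10.5 ± 0.407 against 8.22 ± 0.928 FPKM). The gene called lower was the scavenger receptor Cd163 (1.94 ± 0.445 against 3.21 ± 0.420 FPKM).

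In the IL-17 family 1 of 7 members was called. Il17ra (ENSMUSG00000002897, chromosome 6, 120463247 to 120487559, plus strand) is the chain that all IL-17 receptors share. It was at 4.44, 3.98, 4.32, 4.22 and 4.99 FPKM in IPF samples 1 to 5 and at 2.99, 3.15, 3.69, 3.11 and 3.64 FPKM in sham samples 1 to 5. The groups did not overlap, but the gap between them was narrow. The log2 fold change was 0.40 (95% interval 0.20 to 0.59, limma adjusted p = 0.0238), or 1.32-fold. This call was lost without IPF replicate 1 (limma adjusted p = 0.0586), IPF replicate 4 (0.0508), sham replicate 1 (0.0515), sham replicate 2 (0.0605) or sham replicate 4 (0.0595).

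The partner chains of Il17ra did not pass the test, and the family's median was -0.01. Il17rc, which joins Il17ra to bind IL-17A and IL-17F, was at 11.4 ± 1.34 and 11.2 ± 1.08 FPKM. Il17re, the receptor of IL-17C, was at 3.49 ± 0.374 and 3.89 ± 0.527 FPKM, and Il17rd at 7.61 ± 0.586 and 7.66 ± 0.562 FPKM. Il17rb, the receptor of IL-25, was at 0.399 ± 0.0849 and 0.652 ± 0.278 FPKM, but it overlaps Actr8 on the other strand. The ligand Il17d was at 10.6 ± 1.83 and 10.9 ± 1.15 FPKM (SD, n = 5 each). Of 7 partners of the family 1 was called higher and 0 lower, with a median of 0.04. It was the adaptor Traf5 (5.02 ± 0.291 against 3.97 ± 0.427 FPKM, limma adjusted p = 0.0406).

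Genes known to be induced by IL-17 and IL-1 showed no common direction. Of 19 tested, 1 was called higher and 1 lower, and the median log2 fold change was 0.00. Single genes did differ, since 10 of the 19 had an unadjusted limma p under 0.05 (all genes 19.5%). Their log2 fold changes ran from -0.73 to 1.78 over the list, with 9 positive and 10 negative. The monocyte chemokine Ccl2 was higher at 0.248 to 1.12 FPKM in IPF and 0 to 0.264 FPKM in sham (limma adjusted p = 0.0371). The antibacterial protein gene Lcn2 was lower at 22.3 ± 5.14 against 36.6 ± 6.28 FPKM (limma adjusted p = 0.0291). In the IL-1 pathway itself, 2 of 11 partners were called higher and 0 lower (median 0.10). They were Casp1, the protease that matures IL-1 beta and IL-18 (3.78 ± 0.605 against 2.65 ± 0.372 FPKM, limma adjusted p = 0.0406), and the adaptor Myd88 (17.1 ± 0.567 against 14.5 ± 0.729 FPKM, limma adjusted p = 0.0198).

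**Figure D4:**
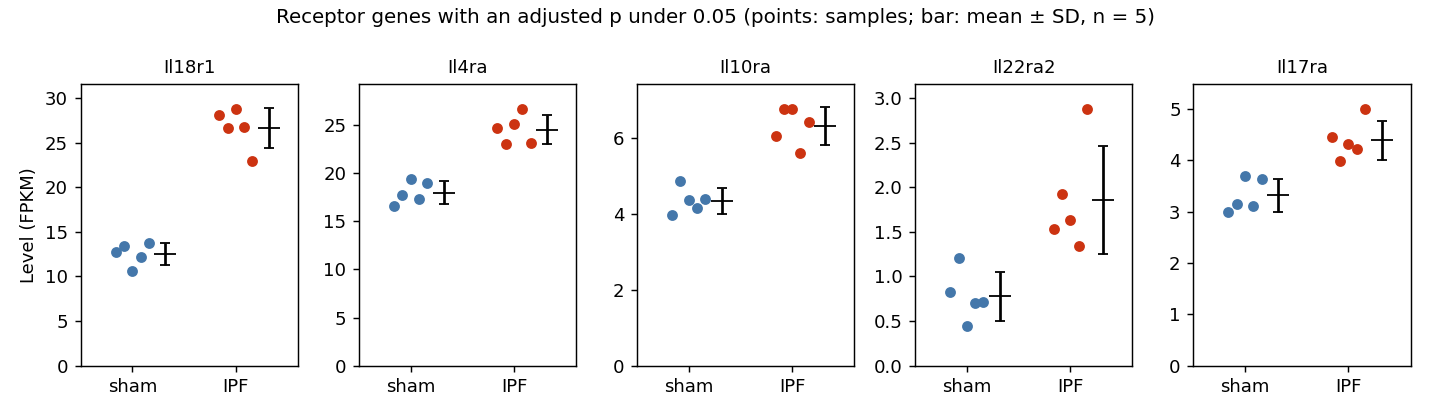
Level in FPKM of the 5 called receptor genes in each sample (blue sham, red IPF, points), with the mean and SD of each group (n = 5) as a bar beside the points. The axes start at 0 and differ between panels. In all 5 panels the lowest IPF point is above the highest sham point, with the widest gap for Il18r1 (22.96 against 13.79) and a narrow one for Il22ra2 (1.34 against 1.21).

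None of the 5 members of the gp130 family was called. Il6st came closest, at 45.4, 44.8, 52.3, 48.7 and 45.9 FPKM in IPF samples 1 to 5 and 44.7, 38.2, 39.8, 39.1 and 40.9 FPKM in sham samples 1 to 5. The groups did not overlap, but sham replicate 1 nearly met the lowest IPF value. Its log2 fold change of 0.22 (limma adjusted p = 0.0603) was 0.26 without sham replicate 1 (limma adjusted p = 0.0274). Il6ra, which binds IL-6, was at 9.47 ± 2.35 and 9.98 ± 1.14 FPKM, and the fibrogenic ligand Il11 at 0.331 ± 0.140 and 0.458 ± 0.147 FPKM (SD, n = 5 each). Il6 was under the threshold, with at most 6 reads in a sample. Of 12 partners, 2 were called higher and 1 lower (median 0.04). The ligand gene Lif was at 1.04 ± 0.299 against 0.463 ± 0.151 FPKM (limma adjusted p = 0.0353) and Socs3 was named above, while the receptor gene Cntfr was lower at 1.90 ± 0.335 against 3.09 ± 0.605 FPKM (limma adjusted p = 0.0308). Of 10 genes induced by IL-6 or gp130, 4 were called higher (40%, all genes 3.71%). They were Socs3, Bcl3, Pim1 and the AP-1 subunit Junb (19.5 ± 1.79 against 15.7 ± 1.45 FPKM). In the same list 1 was lower, Cebpd, a transcription factor (19.2 ± 7.50 against 34.4 ± 6.14 FPKM, limma adjusted p = 0.0319).

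All 7 members of the IL-12 family had positive fold changes (median 0.23), and 0 were called. Il23r, 1 of the 7, passed the level threshold only through IPF (0.118 FPKM, sham 0.0976 FPKM). Il23a, which lay under the threshold, had 9 reads in IPF and 13 in sham. The shared direction thus rests in part on that threshold. Il12rb2, the signalling chain of the IL-12 receptor on NK and Th1 cells, was the one without overlap. It had 12 to 23 reads per IPF sample and 3 to 11 reads per sham sample, or 0.227 ± 0.0664 against 0.114 ± 0.0530 FPKM. Its log2 fold change of 0.63 (limma adjusted p = 0.223) ran from 0.14 to 1.05 over the alternatives. Il12rb2 overlaps Serbp1 on the other strand, which was at a mean of 12.8 FPKM. Il27ra, the highest receptor of the family, was at 1.51 ± 0.111 and 1.34 ± 0.205 FPKM. Il12a, the highest ligand, was at 0.897 ± 0.250 and 0.750 ± 0.213 FPKM. Of the 6 partners tested, 1 was called higher and 0 lower (median 0.17), the interferon gamma receptor chain Ifngr2 (24.0 ± 0.575 against 19.2 ± 2.21 FPKM, limma adjusted p = 0.0311). Ifng itself was under 0.1 FPKM and was not tested.

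The common beta family was represented by 2 receptor chains, Il3ra (7.66 ± 0.535 against 7.23 ± 1.04 FPKM) and the eosinophil gene Il5ra (0.225 ± 0.124 against 0.122 ± 0.0794 FPKM), neither called, and 0 of 5 partners were called (median 0.10). Of the unrelated ligands, Il34 was at 10.9, 10.4, 9.96, 9.47 and 12.3 FPKM in IPF samples 1 to 5 and at 11.5 to 13.9 FPKM in the sham samples. Only IPF replicate 5 reached into the sham range. For Il34 the log2 fold change was -0.26 (95% interval -0.44 to -0.08, limma adjusted p = 0.0986). Without IPF replicate 5 it was -0.31 (limma adjusted p = 0.0265). Csf1, the other ligand of the receptor that IL-34 uses, was called higher (12.2 ± 1.09 against 9.27 ± 0.749 FPKM, limma adjusted p = 0.0135), as 1 of 4 partners of IL-34 (median 0.07). Il16, a chemoattractant of CD4+ cells, was at 2.73 ± 0.281 and 2.22 ± 0.202 FPKM (limma adjusted p = 0.124).

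Many of these receptors are leukocyte genes, and in whole lung more cells of a type and more RNA per cell cannot be told apart. Beside the receptors, the summed levels of several leukocyte marker lists ran higher in IPF. Of all genes tested, 3.71% were called higher and 2.14% lower. The 6 NK-cell genes summed to 14.2 to 22.0 FPKM in IPF and 6.42 to 11.9 FPKM in sham, with 4 called higher. The 5 B-cell genes summed to 31.7 to 47.8 and 17.1 to 28.0 FPKM, with 5 called higher. The 6 monocyte genes summed to 28.5 to 34.2 and 20.1 to 24.4 FPKM, with 5 called higher. The 8 T-cell genes summed to 19.1 to 25.1 and 12.1 to 19.2 FPKM, with 1 called higher, Cd4. For alveolar macrophages and dendritic cells 0 of 6 genes each were called. Of 6 tested mast-cell and ILC2 genes, the mast-cell protease Cpa3 was higher (4.86 ± 2.00 against 0.909 ± 0.247 FPKM) and the epidermal growth factor family ligand Areg lower, while Mcpt8, Ms4a2 and Fcer1a were too low to test. No marker of these lists was at 0 in every sample. Their part in the differences of Il18r1, Il10ra, Il4ra, Il17ra and Il22ra2 was not tested.

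Among structural cells, the 6 endothelial genes summed to 1069 to 1220 FPKM in IPF and 947 to 989 FPKM in sham, with Cldn5 called higher. Cldn5 alone was at 432 to 481 FPKM in IPF and 238 to 340 FPKM in sham. Of the 6, 4 had positive log2 fold changes, while Pecam1 (-0.05) and Vwf (-0.01) had negative ones. The gap between the sums is thus not a rise shared by all 6. Of the 5 fibroblast genes Pdgfra was called higher. Of the alveolar type 1 and type 2, club, ciliated, adipocyte, erythroid and heart-muscle genes, 0 were called. Lung identity was plain from the alveolar type 2 genes, which summed to 11750 to 19023 FPKM over all samples. The summed club cell genes and the summed ciliated cell genes were highest in IPF replicate 3, and heart-muscle genes summed to 93.1 FPKM in IPF replicate 4 and 78.1 FPKM in sham replicate 3, against at most 3.28 FPKM elsewhere.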

How the data were processed

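Whole-lung mRNA of 5 IPF and 5 sham mice was sequenced. Per the methods, Fastp trimming, HISAT2 alignment and StringTie quantification gave the FPKM table that the authors deposited. The methods name GRCm39, but the gene positions are those of GRCm38 and are given as such. The library kit is KAPA mRNA HyperPrep in the paper and NEBNext Ultra in the labels, and whether counting used strand is not given in the sources used here. Whole reads were recovered from FPKM and gene length.

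Genes with a mean of at least 0.1 FPKM were tested in R 4.3.3 by limma 3.58.1, with trended variances and no covariate, after a pseudocount of 0.1 and log2. P-values were adjusted by Benjamini-Hochberg over all genes tested, and the limit was 0.05. The fit was tested on simulated data. Permutation tests of single genes were exact and two-sided. Summaries used Python 3.11.15, pandas 2.3.3, numpy 2.4.6 and scipy 1.17.1.

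The members, the 13 lists of partner and induced genes and the 19 marker lists were chosen with earlier results of these data known. The lists of IL-12 partners, IL-17 partners and genes induced by IL-10 were each shortened by 1 gene that is not reported here, after the values were seen, so that their counts and medians hold for the remaining genes alone. Genes were named if they were members with an adjusted p under 0.05 or without overlap, the highest ligand or receptor of a family, next to the level threshold, or listed genes with an adjusted p under 0.05 (up to 5 per list). Other members were named to complete a family. Alternatives changed the pseudocount (1 or 0.01), level filter, scaling, variance model, sample weights or gene types, added a replicate block, used voom on the recovered reads, or left out samples. Leaving out both sham replicate 1 and IPF replicate 5 was chosen after seeing the data.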

Additional observations from a re-analysis of the deposited data

Results flagged for a closer look

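Among 108 groups of 5 samples (54 genes in 2 groups), 8 held a sample whose gap to its nearest neighbour exceeded Dixon's limit of 0.71 of the group's range, and chance gives about 1 in 20 such groups. IPF replicate 5 accounted for 3 of them. Its Il1b level was 7.71 FPKM (other IPF samples 1.38 to 2.47), its Il1r2 level 1.87 FPKM (others 0.123 to 0.582) and its Il12rb2 level 0.343 FPKM (others 0.186 to 0.221). IPF replicate 2 was high for the ligand Il12a, at 1.34 FPKM (others 0.742 to 0.829), and for Il4, at 2.59 FPKM (others 1.38 to 1.61). In the sham group, replicate 1 was low for Il13ra1, at 11.5 FPKM (others 13.5 to 14.1), replicate 2 was low for Il18bp, at 1.82 FPKM (others 1.96 to 2.00), and replicate 4 was high for Il2rg, at 16.1 FPKM (others 14.2 to 14.6).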

How the results depend on the processing

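Il18r1, Il4ra and Il10ra were called under all 22 alternatives. Il22ra2 was lost without IPF replicate 2, and Il17ra in 5 of the fits that left out 1 sample and without both sham replicate 1 and IPF replicate 5 (limma adjusted p = 0.0559), an alternative chosen after seeing the data. In place of 5 members, 11 were called with array weights, 8 with protein-coding genes alone and 8 without both samples, and 4 to 9 when each sample was left out. The count of members lower was 1 with array weights and 1 without both samples (Il34 each time), and 0 to 1 when each sample was left out. With a pseudocount of 1, 1 member passed both limits in place of 2, and over all genes 38 rather than 139 passed higher and 36 rather than 94 lower. When each sample was left out, the log2 fold change of Il15 ran from -0.037 to 0.12 and that of Il17rc from -0.020 to 0.10, so neither has a direction. Il1b passed with a filter of 1 FPKM (limma adjusted p = 0.0476), array weights (0.0352), protein-coding genes alone (0.0379), without IPF replicate 2 (0.0498), without IPF replicate 5 (0.0110) and without both samples (0.0308). The cause of these changes was not tested. Samples with the same number deviated from their group means with correlations of -0.02 to 0.10, so the numbers do not pair them. With the replicate block the same 5 members were called, and limma voom on the reads also called the same 5. Il6st passed with a filter of 1 FPKM, array weights, protein-coding genes alone, without sham replicate 1 and without both samples. Il2rb passed with array weights. Of all comparisons of a named member with an alternative, 407 kept their direction and side of the threshold. In the rest, 8 reversed direction, 15 gained a call and 7 lost one. Members with few reads, such as Il12rb2 and Il23r, are limited by depth.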
